A study of Mus musculus with 16 samples.

Results

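Fibroblast growth factors (FGFs) and their receptors were followed while mouse embryonic stem (ES) cells left naive pluripotency. The 8 genes were the ligands Fgf4, Fgf5, Fgf8 and Fgf15 and the receptors Fgfr1, Fgfr2, Fgfr3 and Fgfr4, chosen by symbol from a table of RNA-seq counts for 27179 genes. All 8 had a row in it, and 7 passed the filter on low counts; Fgf8, with at most 9 counts in a library, did not. The series held 16 libraries in 8 groups of 2, given by 2 maintenance media and 4 collection times. All cells had first been grown in serum with leukaemia inhibitory factor (LIF), were adapted for 3 passages to either medium, and were used for at most 9. Both media contained 2 mM glutamine, LIF and 2i: the GSK3 inhibitor CHIR99021 at 3 uM, an activator of the Wnt pathway, together with the MEK inhibitor PD0325901 at 1 uM, which keeps ERK inactive. One medium, 2i/LIF, was serum-free and carried N-2 and B-27 supplements, and the other, serum/LIF+2i, held 10% fetal bovine serum. LIF was at 1000 U per ml in serum/LIF+2i, and its dose in 2i/LIF is not given in the sources used here. Cells of the 0 h groups were collected in these media, and those of the 12, 24 and 40 h groups after that time in serum-free N-2 and B-27 medium lacking 2i and LIF. The basal mix of that exit medium differed between the arms, being DMEM made up to 2 mM glutamine with Neurobasal for serum/LIF+2i and the unchanged DMEM/F-12 with Neurobasal for 2i/LIF. After 0 h, effects of the maintenance medium and of the exit medium therefore cannot be told apart. The treatment protocol names 24 and 40 h only for the serum/LIF+2i arm although 12 h libraries are labelled for it, and the sample labels were followed.

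FGFs are secreted proteins that bind receptor tyrosine kinases, in many cases together with heparan sulfate on the cell surface. The activated receptors recruit adaptors such as Frs2 and Grb2 and switch on the Ras-MAPK cascade, whose last kinase, ERK, induces ETS factors and feedback inhibitors of the Sprouty and Dusp families. ES cells make Fgf4 themselves, and the ERK signal it feeds favours departure from the naive state. Fgf5 is a classical mark of the epiblast after implantation, and Fgfr1 and Fgfr2 are the receptors best known in the early embryo.

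Library totals ranged from 5931381 to 11142744 counts, the largest being a serum/LIF+2i library at 40 h. The 2 replicates of each group had Pearson's r of 0.991 to 0.995 over genes, and none was a copy of the other, since the chi-square statistic per degree of freedom was 1.39 to 5.42. The labels do not say that replicates were separate cultures, so p-values measure the spread between these libraries, which may be technical. All 6 markers of pluripotent cells were present in every group. Levels were taken in CPM (counts scaled to library size adjusted by TMM). Between 0 and 40 h the summed level of these markers went for 2i/LIF from 2894–2975 to 1272–1308, and for serum/LIF+2i from 3271–3330 to 1237–1285. The sum of 6 neural progenitor markers went from 2.24–2.43 to 27.3–32.2 CPM and from 3.97–5.73 to 51.3–56.6 CPM. It was led by Sox1 (means of 22.6 and 47.2 CPM at 40 h), while Pax3, Neurog2 and Hes5 had at most 3 counts per group then. The sum of 6 fibroblast markers went from 3.45–3.95 to 15.1–22.3 CPM and from 2.50–2.64 to 10.5–11.7 CPM, led by Dcn, with Lum and Postn at 3 counts or fewer per group. For 7 primitive endoderm markers the sums went from 6.23–6.38 to 11.02–14.0 CPM and from 6.46–6.90 to 15.9–16.7 CPM, led by Dab2. Sums of 6 trophoblast markers went down to 6.51–8.13 CPM and those of 6 primitive streak markers to 0.951–1.84 CPM. The part of these other markers in the results was not tested. In bulk RNA, more or fewer cells that express a gene and more or less RNA per cell cannot be told apart.

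Fgf4 and Fgf15 are neighbours on mouse chromosome 7. In the RefSeq annotation of GRCm38, Fgf4 (Entrez 14175) spans chr7:144861386-144865245 and Fgf15 (14170) spans chr7:144896532-144900953, both on the plus strand, 31286 bases apart and with 0 genes lying wholly between them. Fgfr2 (14183) lies on the same chromosome at chr7:130162451-130266808, on the minus strand. Chromosome 5 carries Fgf5 (14176) at chr5:98254184-98277033 and Fgfr3 (14184) at chr5:33721724-33737068, both on the plus strand. Fgf8 (14179) is at chr19:45736491-45742941 on the minus strand, Fgfr1 (14182) at chr8:25518759-25575718 and Fgfr4 (14186) at chr13:55152818-55168759, the last pair on the plus strand. Fgf15 overlaps the antisense RNA Gm26793, and Fgfr1 overlaps the RNAs Gm31288 and Gm16159, none of which has a row in the count table. Whether counting used the strand is not given in the sources used here, and reads of these partners may be part of the values of Fgf15 and Fgfr1.

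Promoters are shown for the ligand that was high at all times, Fgf4, and for a ligand and a receptor that rose from low levels, Fgf5 and Fgfr2. Each line is the 250 bases before the annotated start, read 5′ to 3′ on the gene's strand from RefSeq (GRCm38.p6). The windows are chr7:144861136-144861385 (plus strand) for Fgf4, chr5:98253934-98254183 (plus) for Fgf5 and chr7:130266809-130267058 (minus) for Fgfr2. Capitals mark matches, on either strand, to any of 6 motifs: the TATA box TATAAA, its variant TATATA, the GC box GGGCGG, the TCF/LEF core CTTTGA, the octamer ATGCAAAT and the ETS site CCGGAAGT.
Fgf4: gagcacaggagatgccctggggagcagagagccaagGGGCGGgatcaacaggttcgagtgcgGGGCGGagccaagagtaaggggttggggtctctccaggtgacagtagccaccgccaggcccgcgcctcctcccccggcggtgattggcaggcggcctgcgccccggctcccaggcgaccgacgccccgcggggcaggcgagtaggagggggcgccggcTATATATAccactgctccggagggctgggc
Fgf5: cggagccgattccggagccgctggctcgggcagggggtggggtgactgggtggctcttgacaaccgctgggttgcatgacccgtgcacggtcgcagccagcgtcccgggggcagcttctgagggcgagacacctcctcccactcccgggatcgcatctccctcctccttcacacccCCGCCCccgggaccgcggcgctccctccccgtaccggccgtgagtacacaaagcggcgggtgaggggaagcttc
Fgfr2: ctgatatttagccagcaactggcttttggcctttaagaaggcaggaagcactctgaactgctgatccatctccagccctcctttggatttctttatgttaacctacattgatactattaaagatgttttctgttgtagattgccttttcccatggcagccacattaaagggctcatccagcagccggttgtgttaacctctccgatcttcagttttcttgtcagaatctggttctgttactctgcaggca
The Fgf4 window held 2 GC boxes and 2 overlapping matches to the TATATA variant, 23 to 30 bases before the start. The Fgf5 window held 1 GC box on the opposite strand, 69 to 74 bases before the start, and the Fgfr2 window held 0 matches. Over 32851 windows of this length, GGGCGG was in 32.7%, TATATA in 5.25%, TATAAA in 12.4%, CTTTGA in 13.8%, ATGCAAAT in 1.60% and CCGGAAGT in 2.88%. The GC content was 71.2% for Fgf4, 70.8% for Fgf5 and 44.0% for Fgfr2, against a median of 52.4% over all windows. A match is a run of letters and not a measured binding site.

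Of the 4 ligands, Fgf4 was by far the most abundant per length at every time. It rose moderately to 24 h and then fell below its starting level in both media. Its levels in 2i/LIF were, in order of time, 287 and 298 CPM (the 2 libraries at 0 h), 388 and 405, 430 and 432, and last 214 and 195. Those in serum/LIF+2i were 318 and 321, 365 and 357, 394 and 377, and last 138 and 125 CPM. The 40 h libraries lay below all others, and within each medium no time overlapped another. Differences were tested with edgeR's quasi-likelihood F test, with p adjusted by Benjamini-Hochberg over 14288 genes, and called at an adjusted p under 0.05. For 2i/LIF the log2 differences from 0 h were 0.44 ± 0.04 (SE; 12 h, adjusted p = 5.4e-17), 0.56 ± 0.04 (24 h, 1.3e-23) and -0.52 ± 0.04 (40 h, 3.4e-20). For serum/LIF+2i they were 0.17 ± 0.04 (adjusted p = 0.00016), 0.27 ± 0.04 (3.9e-09) and -1.28 ± 0.04 (1e-52). Fgf4 thus ended 1.43-fold below its starting level in 2i/LIF and 2.43-fold below it in serum/LIF+2i. Its gain between 12 and 24 h was small, 0.12 ± 0.04 (edgeR adjusted p = 0.014) and 0.10 ± 0.04 (0.035). DESeq2 did not call it (adjusted p = 0.092 and 0.12). Nor did edgeR when replicate 1 of 2i/LIF at 12 h or either 2i/LIF replicate at 24 h was left out (0.063 to 0.22), or when either serum/LIF+2i replicate at 12 h or replicate 1 at 24 h was (0.054 to 0.31; 0.06 on the log2 scale without the latter).

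Fgf5 was nearly silent in naive cells and, among the ligands tested, separated the media most at 40 h. It had 1 and 0 counts in 2i/LIF at 0 h, then 16 and 13, 60 and 94, and 160 and 106. Starting from serum/LIF+2i, the counts were 0 and 0, 15 and 18, 64 and 53, and 32 and 37. The media overlapped at 12 h and were apart at the later times. On the CPM scale, Fgf5 in 2i/LIF went from 0.0862 ± 0.122 CPM (SD, n = 2) to 17.2 ± 3.98 CPM. Set against the single count of 2i/LIF at 0 h, the ratio was 24.3 after 12 h (95% exact counting interval 4.03 to 993), 138 after 24 h (24.5 to 5501) and 215 after 40 h (38.2 to 8513). For serum/LIF+2i, with 0 counts at 0 h, Fgf5 was at least 8.92-fold, at least 28.2-fold and at least 14.3-fold higher at the 3 later times, taking a floor of 3 counts over the group. Such intervals and bounds cover counting error only. edgeR called all 6 differences from 0 h, with adjusted p of at most 3e-05. Fold changes fitted from a level near 0 depend on the prior count; that at 12 h in 2i/LIF moved from 4.36 to 7.01 (log2) when replicate 1 at 0 h was left out. Between 12 and 24 h Fgf5 rose by 2.50 ± 0.28 (log2, SE; edgeR adjusted p = 3.2e-12) in 2i/LIF and by 1.65 ± 0.30 (1.6e-06) in serum/LIF+2i. The neural marker sum given above also went up over these hours.

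Fgf15, the mouse counterpart of human FGF19 and in the adult a gut hormone that restrains bile acid synthesis, came up with Fgf5 but stood higher at first after serum/LIF+2i. Its counts in 2i/LIF were 0 and 3 at 0 h, then 8 and 14, 62 and 54, and 98 and 88. The serum/LIF+2i counts were 1 and 1, 35 and 48, 133 and 128, and 89 and 78. In CPM, the media did not overlap once the cells had left 0 h: serum/LIF+2i was above 2i/LIF after 12 and 24 h and below it after 40 h. For 2i/LIF the ratio to 0 h was 6.15 (95% exact counting interval 1.85 to 32.1), 34.7 (11.6 to 171) and 50.05 (16.9 to 245) in order of time. For serum/LIF+2i it was 33.6 (9.03 to 282), 94.2 (25.8 to 782) and 51.8 (14.1 to 431). edgeR called all 6 differences, the weakest being that of 2i/LIF at 12 h (adjusted p = 0.0019), which was lost when replicate 1 of 2i/LIF at 0 h (0.073) or replicate 2 at 12 h (0.053) was left out. All 3 counts at 0 h in 2i/LIF came from replicate 2. Leaving it out raised the fitted log2 differences from 2.54 to 6.60, from 5.03 to 9.08 and from 5.56 to 9.61, while leaving out replicate 1 took the first to 1.67. Between 12 and 24 h Fgf15 rose by 2.49 ± 0.30 (log2, SE; edgeR adjusted p = 4e-12) and 1.48 ± 0.19 (1.3e-11).

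Fgf8, a ligand of gastrulation and of later signalling centres, stayed at the edge of detection. It had 1 or 2 counts in each library of 0 and 12 h. The 40 h libraries held 5 and 2 counts for 2i/LIF and 9 and 6 for serum/LIF+2i and overlapped between the media on the CPM scale. Relative to 0 h these gave ratios of 2.83 (95% exact counting interval 0.538 to 27.9) and 4.65 (1.08 to 41.9). Because it failed the filter, it was not among the genes tested. With the filter removed, edgeR gave 1.41 ± 1.22 (log2, SE; adjusted p = 0.39) for 2i/LIF and 2.11 ± 1.06 (0.09) for serum/LIF+2i, so a difference was not detectable by this test at this depth.

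**Figure D1:**
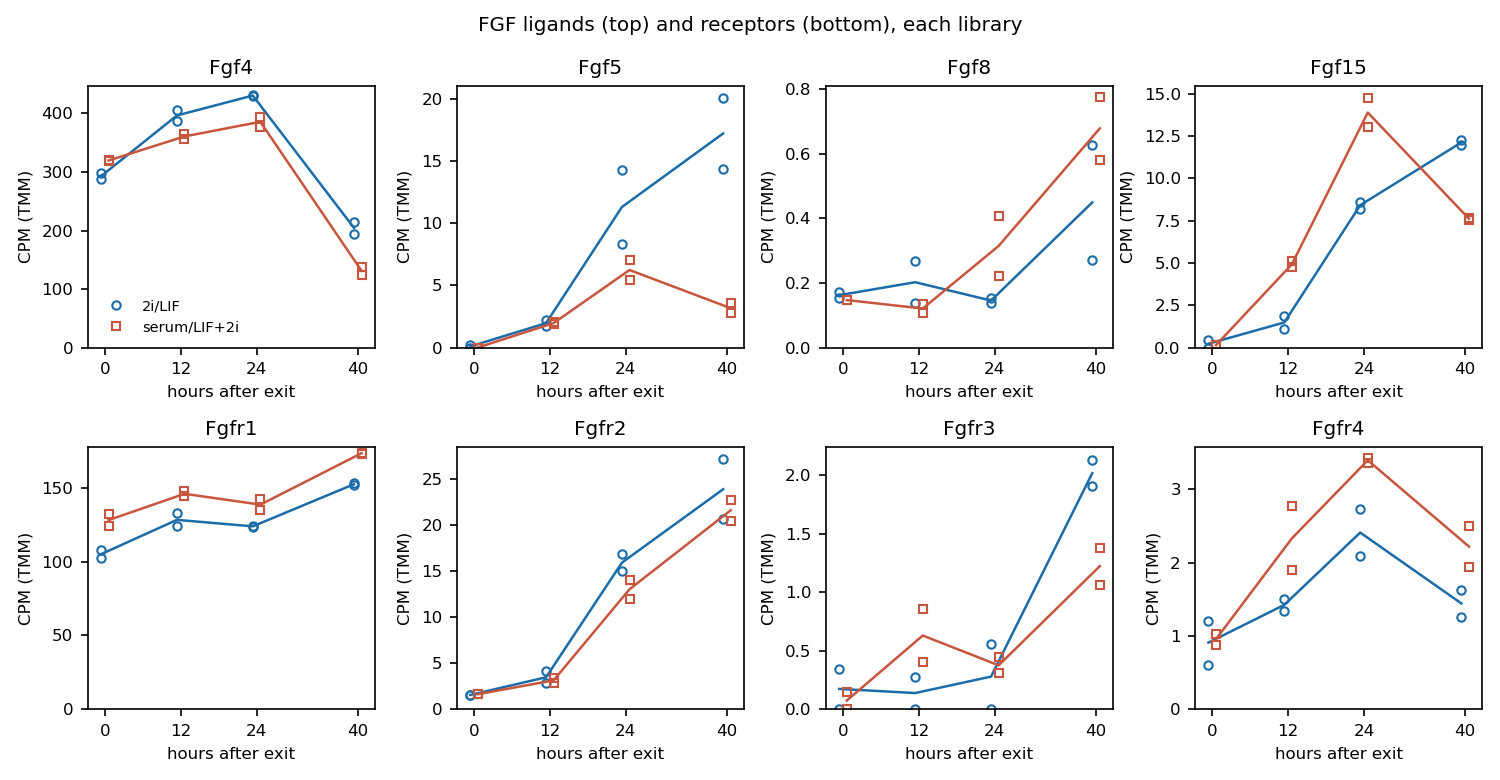
Level of each FGF ligand (top) and receptor (bottom) in CPM against hours after exit, with a separate linear axis from 0 for each gene. Each marker is a library (circles, 2i/LIF; squares, serum/LIF+2i), and lines join the means of 2 libraries. Fgf4 drops in both media after 24 h, Fgf5 and Fgf15 turn down after 24 h in serum/LIF+2i but not in 2i/LIF, and Fgfr2 climbs in both.

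Fgfr1 was the main receptor per length throughout and changed little. Its levels in 2i/LIF were 108 and 102 CPM at 0 h, then 124 and 133, 123 and 124, and 153 and 152. Those in serum/LIF+2i were 132 and 124, 148 and 144, 142 and 135, and 174 and 173 CPM. The 40 h libraries were the highest of each medium, and serum/LIF+2i lay above 2i/LIF at every time. The log2 differences from 0 h for 2i/LIF were 0.29 ± 0.06 (SE; 12 h, edgeR adjusted p = 8.3e-06), 0.24 ± 0.06 (24 h, 0.0002) and 0.54 ± 0.06 (40 h, 7.2e-16). The corresponding values for serum/LIF+2i were 0.19 ± 0.05 (0.0017), 0.11 ± 0.05 (0.052, not called) and 0.44 ± 0.05 (9.9e-14). The 24 h value lay at the threshold: it was called under 5 other settings (adjusted p 0.013 to 0.05 after rounding) and in 11 of 16 fits without 1 library (0.031 to 0.049), but not with DESeq2 (0.1). The 12 h call of serum/LIF+2i was lost when its replicate 2 at 0 h was left out, where the log2 difference was 0.15. Between 12 and 24 h the differences of -0.05 ± 0.05 and -0.07 ± 0.05 were not called (0.51 and 0.22). Between 24 and 40 h Fgfr1 rose by 0.30 ± 0.05 (8.3e-07) and 0.32 ± 0.05 (2.4e-09).

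Fgfr2 had the largest fold rise of the receptors that held more than 3 counts per group at 0 h, and its 40 h libraries overlapped between the media. It had 9 and 10 counts in 2i/LIF at 0 h, then 30 and 21, 108 and 111, and 217 and 152. The serum/LIF+2i counts were 11 and 11, 25 and 27, 127 and 118, and 238 and 235. Within each medium the CPM of every time lay above that of the time before. In order of time, the fold change to 0 h was 2.24, 10.3 and 15.5 for 2i/LIF (the last 3.96 ± 0.24 log2, SE; edgeR adjusted p = 5.4e-31) and 1.91, 7.98 and 13.2 for serum/LIF+2i (the last 3.73 ± 0.23; 5.4e-31). The 95% exact counting intervals of the 40 h ratios to 0 h were 9.90 to 26.3 for 2i/LIF and 8.71 to 21.5 for serum/LIF+2i. These standard errors may thus be narrower than counting error. Between 12 and 24 h Fgfr2 rose by 2.20 ± 0.21 (1.1e-16) and 2.06 ± 0.21 (5.2e-16). The 12 h calls (adjusted p = 0.0079 and 0.025) were the weakest. That of 2i/LIF was lost without its replicate 2 at 0 h (0.06) or replicate 1 at 12 h (0.15), and that of serum/LIF+2i without either of its replicates at 0 h or replicate 1 at 12 h (0.088 to 0.1).

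Fgfr3, best known for restraining bone growth, was rare. It had 2 and 0 counts in 2i/LIF at 0 h, then 2 and 0, 4 and 0, and 17 and 14. The serum/LIF+2i counts were 1 and 0, 3 and 8, 4 and 3, and 16 and 11. At 40 h both libraries of each medium lay above all its earlier ones, and in serum/LIF+2i those of 12 and of 24 h also lay above those of 0 h. The ratio of 40 h to 0 h was 12.5 (95% exact counting interval 3.18 to 108) for 2i/LIF and 16.8 (2.76 to 686) for serum/LIF+2i, with edgeR adjusted p of 6.7e-05 and 0.00036. The fitted log2 differences, 3.52 and 3.80, grew to 7.05 and 6.32 when replicate 1 of the 0 h group concerned was left out. A further call at 12 h in serum/LIF+2i (adjusted p = 0.031) rested on 11 counts against 1. It was lost with DESeq2 (0.12) and when replicate 2 of serum/LIF+2i at 0 h (0.21) or at 12 h (0.26) was left out, and its fitted log2 difference grew from 2.91 to 5.43 without replicate 1 at 0 h.

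Fgfr4, which with the co-receptor Klb receives Fgf15 in the liver, had its highest mean at 24 h in both media. Its counts in 2i/LIF were 7 and 4 at 0 h, then 11 and 10, 15 and 18, and 10 and 12. The serum/LIF+2i counts were 7 and 6, 14 and 26, 31 and 33, and 29 and 20. The 24 h libraries of serum/LIF+2i stood above all others in CPM. For 2i/LIF the difference from 0 h was called at 24 h (1.41 ± 0.50 log2, SE; edgeR adjusted p = 0.01), with 0.67 ± 0.55 (0.34) before and 0.68 ± 0.55 (0.26) after. For serum/LIF+2i the 3 values were 1.30 ± 0.46 (0.013), 1.81 ± 0.42 (7.9e-05) and 1.21 ± 0.45 (0.012). From 24 to 40 h no difference was called (-0.73 ± 0.42 and -0.60 ± 0.30; 0.15 and 0.091). The 24 h call of serum/LIF+2i held under every alternative run. That of 2i/LIF was lost without its replicate 2 at 0 h (0.16) or at 24 h (0.084). The 12 h call of serum/LIF+2i was lost with DESeq2 (0.062) and without its replicate 2 at 0 h (0.083) or at 12 h (0.19), and the 40 h call with DESeq2 (0.053) and without its replicate 2 at 0 h (0.081) or replicate 1 at 40 h (0.096).

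Counted over the 7 genes tested, 5 rose and 0 fell after 12 h from 2i/LIF, against 21.0% and 23.7% of all genes. After 24 h it was 6 and 0, against 29.2% and 29.6%, and after 40 h 5 and 1, against 34.1% and 34.7%. From serum/LIF+2i 7 rose and 0 fell after 12 h (25.3% and 25.9% of all genes), 5 and 0 after 24 h (32.4% and 32.0%), and 6 and 1 after 40 h (35.3% each way). The gene that fell was Fgf4 in both media. The count for serum/LIF+2i at 12 h went from 7 to 3 when its replicate 2 at 0 h was left out. Fgf5, Fgf15, Fgfr3 and Fgfr4 could pass the filter only through their later groups, so these counts describe the genes and lend no weight to a trend.

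Per length, Fgf4 supplied nearly all RNA of the 4 ligands in naive cells and still most of it at 40 h. Levels per length were RPKM, CPM divided by the deposited gene length in kilobases. Summed over the 4 ligands, 2i/LIF held 96.9 ± 2.66 RPKM (SD, n = 2) at 0 h, then 133 ± 4.30, 151 ± 1.98 and 81.4 ± 6.44. The sums for serum/LIF+2i were 106 ± 0.693, 123 ± 1.70, 138 ± 5.08 and 49.3 ± 2.95 RPKM. The share of Fgf4 in the sum went over the 40 h from 99.7% ± 0.114 to 82.9% ± 0.992 in 2i/LIF and from 99.8% ± 0.00124 to 87.8% ± 0.893 in serum/LIF+2i. At the end Fgf15 made up 7.89% and 8.60% of ligand RPKM in the 2i/LIF libraries and 8.26% and 8.84% in those of serum/LIF+2i, which overlap. Fgf5 made up 9.32% and 7.49% against 2.15% and 3.03%, without overlap. Fgf8 made up a mean of 0.410% and 1.04%. Without division by gene length the mean 40 h shares were 5.18% and 5.34% for Fgf15 and 0.188% and 0.473% for Fgf8. With 2 libraries against 2, an exact permutation test cannot go below a two-sided p of 0.333, and shares were not tested.

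Summed receptor RPKM went up while ligand RPKM went down over the last step. Over the 4 receptors the sum in 2i/LIF was 21.6 ± 0.923 RPKM (SD, n = 2) at 0 h, then 26.7 ± 0.978, 28.5 ± 0.431 and 35.8 ± 0.993. For serum/LIF+2i it was 26.2 ± 1.18, 30.6 ± 0.306, 31.3 ± 1.37 and 39.7 ± 0.0313 RPKM. Over the 40 h the share of Fgfr1 went for 2i/LIF from 97.2% ± 0.779 to 85.0% ± 1.86, and for serum/LIF+2i from 97.6% ± 0.110 to 87.3% ± 0.287. Fgfr2 took up most of the difference, going from 1.33% ± 0.0373 to 12.5% ± 2.06 and from 1.15% ± 0.0519 to 10.2% ± 0.736. Fgfr4 had its highest shares at 24 h, 2.68% ± 0.474 and 3.45% ± 0.104 (1.69% and 2.19% without division by length), and Fgfr3 at 40 h, 1.28% ± 0.0663 and 0.700% ± 0.128.

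**Figure D2:**
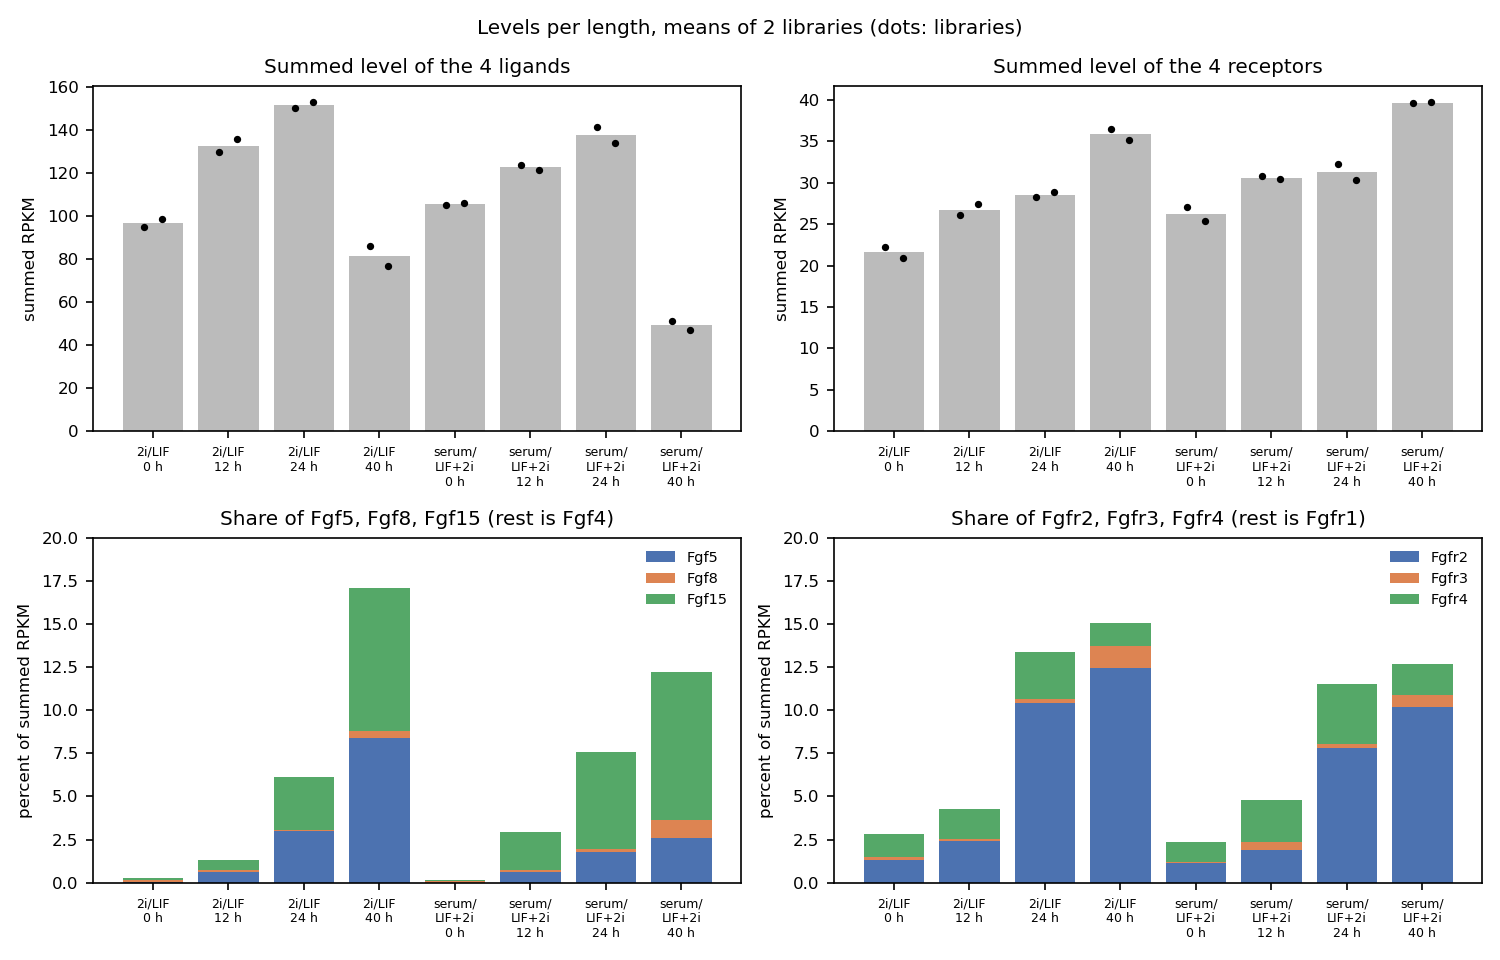
Top, summed level of the 4 ligands (left) and the 4 receptors (right) in RPKM for each group; bars are means of 2 libraries and dots the libraries. Bottom, mean share of the sum held by Fgf5, Fgf8 and Fgf15 or by Fgfr2, Fgfr3 and Fgfr4 on an axis that ends at 20%, the rest being Fgf4 or Fgfr1. The Fgf5 segment at 40 h is 8.40% for 2i/LIF and 2.59% for serum/LIF+2i, while the Fgf15 segments are 8.24% and 8.55%.

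The second comparison set the media against each other at equal times. Of the 7 genes, 2 were higher in serum/LIF+2i at 0 h (Fgf4 and Fgfr1) and 0 lower, against 14.6% and 18.4% of all genes. After 12 h 2 were higher (Fgf15 and Fgfr1) and 1 lower (Fgf4), against 14.8% and 15.5%. After 24 h the higher genes were again Fgf15 and Fgfr1 and the lower ones Fgf4 and Fgf5, against 14.1% and 17.0%. After 40 h 1 was higher (Fgfr1) and 3 were lower, namely the 3 ligands tested, against 13.9% and 13.4%. The total of 4 at 24 h went to 2 when replicate 2 of 2i/LIF at 24 h was left out. The total of 2 at 0 h went to 1 with DESeq2, or when replicate 1 of 2i/LIF or replicate 2 of serum/LIF+2i at 0 h was left out.

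As serum/LIF+2i minus 2i/LIF, Fgf4 differed by 0.13 ± 0.04 (log2, SE; edgeR adjusted p = 0.016) at 0 h, then by -0.14 ± 0.04 (0.0048), -0.16 ± 0.04 (0.00073) and -0.64 ± 0.05 (4.5e-24), ending 1.56-fold lower in serum/LIF+2i. The 0 h call was lost with DESeq2 (0.1) and without replicate 1 of 2i/LIF (0.22) or replicate 2 of serum/LIF+2i (0.086). The 12 h call was lost with DESeq2 (0.05) and without replicate 2 of 2i/LIF (0.11) or of serum/LIF+2i (0.071). Fgf5 was 5.48-fold lower in serum/LIF+2i at 40 h (-2.45 ± 0.21; 1.3e-17). Its 24 h difference, 1.80-fold (-0.85 ± 0.21; 0.00077), was lost without replicate 2 of 2i/LIF at 24 h (-0.42, 0.26). Fgf15 crossed over, being 3.29-fold higher in serum/LIF+2i after 12 h (1.72 ± 0.33; 7.9e-06), 1.64-fold higher after 24 h (0.72 ± 0.17; 0.00051) and 1.59-fold lower after 40 h (-0.67 ± 0.17; 0.0012). DESeq2 did not call the last (adjusted p = 0.058).

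Among receptors, edgeR called a medium difference only for Fgfr1. It was 0.29 ± 0.06 (log2, SE; adjusted p = 2.4e-05) at 0 h, then 0.18 ± 0.05 (0.0033), 0.16 ± 0.05 (0.012) and 0.19 ± 0.05 (0.0013). Leaving out the first 2i/LIF replicate at 12 h lost the 12 h call (0.12). The 24 h call was lost with DESeq2 (0.057) and without replicate 1 of either medium or replicate 2 of 2i/LIF at 24 h (0.056 to 0.16). For Fgfr2 the difference was -0.29 ± 0.15 (0.13) after 24 h and -0.15 ± 0.12 (0.35) after 40 h. For Fgfr3 it was -0.71 ± 0.44 (0.25) after 40 h, and for Fgfr4 0.50 ± 0.34 (0.26) and 0.63 ± 0.39 (0.24) after 24 and 40 h, so that a difference was not detectable for either at this depth.

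The change from 0 h differed between the media for Fgf4 at every time. Taken as the change in serum/LIF+2i minus that in 2i/LIF, this interaction was -0.26 ± 0.06 (log2, SE; edgeR adjusted p = 0.00069), -0.29 ± 0.06 (5.9e-05) and -0.77 ± 0.06 (5e-20) in order of time. Fgf4 was the only gene of the 7 called, against 9.20%, 20.8% and 27.6% of all genes. For Fgf5, Fgf15 and Fgfr3 the interaction is set against 0 h groups of 0 to 3 counts and is too imprecise to read. For Fgfr1 it was -0.10 ± 0.08 (0.34) and for Fgfr2 -0.23 ± 0.48 (0.78) at 40 h.

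The last step, from 24 to 40 h, does not use the 0 h libraries, and there the ligands diverged. From 2i/LIF, Fgf5 rose by 0.63 ± 0.18 (log2, SE; edgeR adjusted p = 0.0023) and Fgf15 by 0.53 ± 0.18 (0.014). From serum/LIF+2i, Fgf5 fell by 0.98 ± 0.25 (0.00057) and Fgf15 fell by 0.86 ± 0.16 (1.8e-06). Fgf4 fell by 1.07 ± 0.04 (9.8e-46) and by 1.55 ± 0.04 (1.8e-61), that is 2.10-fold and 2.94-fold. The difference between the media in this step was called for all 3: -0.48 ± 0.06 (adjusted p = 3.1e-10) for Fgf4, -1.60 ± 0.31 (4.7e-05) for Fgf5 and -1.39 ± 0.24 (5.7e-06) for Fgf15. Thus 3 of the 7 genes were called with a lower change over this step in serum/LIF+2i, against 5.63% of all genes. That share counts this direction alone, whereas those given for the changes from 0 h count both directions. The rises in 2i/LIF were less firm than these differences. That of Fgf5 was lost with DESeq2 (0.1) and when the 2i/LIF replicate 1 at 24 h (0.27, adjusted p = 0.32) or at 40 h (0.36, 0.19) was left out, and grew to 1.05 without replicate 2 at 24 h. That of Fgf15 was lost with DESeq2 (0.1), without either 2i/LIF replicate at 24 h (0.054 and 0.079) and without replicate 1 at 40 h (0.066). The neural marker sum went over the same step for 2i/LIF from 21.0–23.0 to 27.3–32.2 CPM, and for serum/LIF+2i from 24.7–26.8 to 51.3–56.6 CPM; its part in these values was not tested.

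No receptor was called in that comparison of last steps. The difference between media was 0.03 ± 0.07 (log2, SE) for Fgfr1, 0.14 ± 0.19 for Fgfr2, -1.05 ± 1.07 for Fgfr3 and 0.13 ± 0.52 for Fgfr4. By edgeR 0 of 4 receptors had an unadjusted p under 0.05, and DESeq2 called 0. Within the media, Fgfr2 rose by 0.60 ± 0.14 (edgeR adjusted p = 0.00014) from 2i/LIF and 0.73 ± 0.13 (5.6e-07) from serum/LIF+2i, the former call being lost without replicate 1 of 2i/LIF at 40 h (0.38, 0.07). Fgfr3 rose by 2.74 ± 0.69 (0.0005) and 1.69 ± 0.62 (0.018). The first grew to 7.03 when the 2i/LIF replicate 1 at 24 h was left out. The second was lost with DESeq2 (0.14) and without either serum/LIF+2i replicate at 24 h (0.052 and 0.14) or replicate 1 at 40 h (0.13). In all, the last step raised 5 of 7 genes and lowered 1 in 2i/LIF, against 22.2% and 24.5% of all genes, and raised 3 and lowered 3 in serum/LIF+2i, against 25.9% and 24.6%. The median log2 change of the 7 was 0.53 and -0.60, against 0.00 and 0.01 for all genes. Fgfr3 reached the filter level of 1.36 CPM only at 40 h, so these counts and medians are descriptions and lend no weight to a trend. The 2i/LIF total of 6 went to 3 without replicate 1 of 2i/LIF at 40 h.

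**Figure D3:**
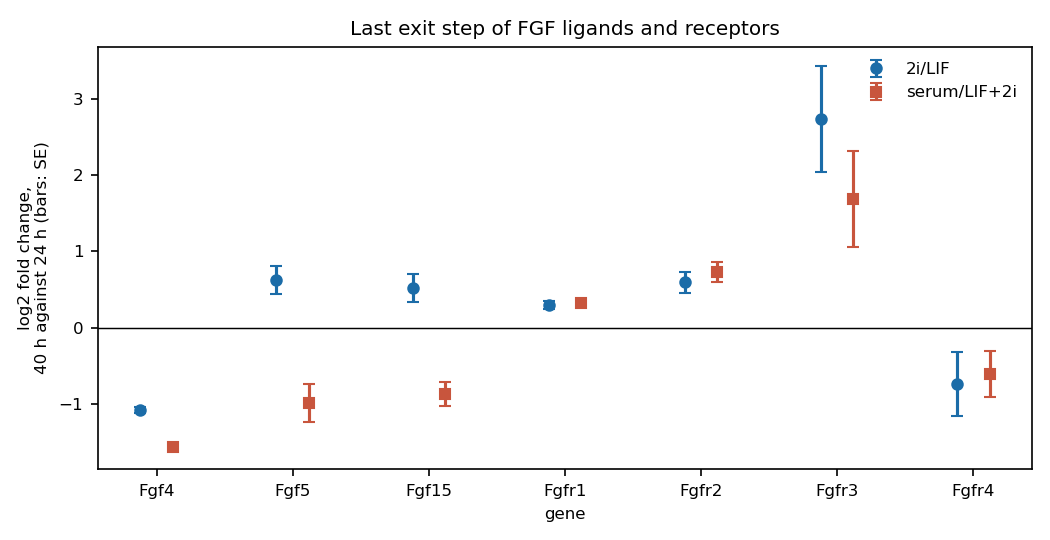
Log2 fold change from 24 to 40 h of the 7 genes tested, with bars for the standard error from edgeR (circles, 2i/LIF; squares, serum/LIF+2i). Fgf5 and Fgf15 lie above 0 in 2i/LIF (0.63 and 0.53) and below 0 in serum/LIF+2i (-0.98 and -0.86), Fgf4 lies below 0 in both, and the receptors Fgfr1, Fgfr2 and Fgfr3 lie above 0 in both.

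In the step before, from 12 to 24 h, Fgf4, Fgf5, Fgf15 and Fgfr2 rose in each medium and 0 genes fell, against 17.4% and 17.7% of all genes in 2i/LIF and 24.2% each way in serum/LIF+2i. Of the 7 genes 0 differed between the media in this step by edgeR's adjusted p, where 17.1% of all genes did. By unadjusted p 1 gene was under 0.05, Fgf15 (-1.002 ± 0.38 log2, SE; adjusted p = 0.056), and DESeq2 called 0.

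Other genes of the pathway were read from lists by function, at 40 h against 0 h. The shares of all genes that rose and fell, given above for this comparison, are the background, and the median of all genes was within 0.01 of 0 on the log2 scale. Of 14 other secreted ligands 5 passed the filter, and the 9 that did not had at most 15 counts in a library, among them Fgf2 and Fgf9. In 2i/LIF 2 rose and 3 fell, and in serum/LIF+2i 2 rose and 2 fell, with medians of -0.77 and -0.78. Fgf10, a ligand of limb and lung buds, was at 4.48 and 3.34 CPM in 2i/LIF at 0 h and ended at 0.2505 and 0.136. Starting from serum/LIF+2i, Fgf10 went from 9.40 and 7.64 to 0.172 and 0.194 CPM. Fgf3 fell by 1.62 ± 0.44 (log2, SE; edgeR adjusted p = 0.00078) and by 1.83 ± 0.40 (2.6e-05). Fgf1 and Fgf21, a hormone of fasting metabolism, were at or under 3 counts per group at 0 h and were called higher at 40 h in both media. Like Fgf13, Hs6st2 and Spry4 below, they could pass the filter only through later groups, so the counts of these lists are descriptions alone. Fgf1 ended at 2.004 and 3.13 CPM for 2i/LIF and at 5.86 and 5.32 CPM for serum/LIF+2i. Fgf21 ended at 1.002 and 1.90 and at 2.76 and 2.03 CPM. Of the 4 intracellular FGF homologous factors, which do not signal through these receptors, 2 passed the filter. Of these Fgf13 rose by 2.46 ± 0.40 (3.9e-08) and 1.81 ± 0.40 (2.9e-05), while Fgf11 was not called (-0.12 ± 0.48 and -0.59 ± 0.55).

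Of 18 co-receptors and receptor-binding proteins 15 passed the filter, and more fell than rose: 4 rose and 8 fell in 2i/LIF (median -0.52 log2), and 3 rose and 8 fell in serum/LIF+2i (-0.58). The syndecan Sdc4, a heparan sulfate carrier, fell by 1.57 ± 0.07 (log2, SE; edgeR adjusted p = 4.5e-42) and by 2.15 ± 0.07 (1.8e-56). Sdc2 fell by 1.23 ± 0.10 and by 1.24 ± 0.10, whereas Sdc1 rose by 1.47 ± 0.12 and 0.92 ± 0.11. The glypican Gpc4 started at 26.5 and 27.0 CPM in 2i/LIF and ended at 20.5 and 16.6. In serum/LIF+2i it started higher, at 52.0 and 46.6 CPM, and ended lower, at 10.9 and 11.2. Its changes were -0.52 ± 0.12 and -2.16 ± 0.11, and the difference of -1.63 ± 0.16 between the media was called (4.4e-15).

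Enzymes that build or edit heparan sulfate, the sugar chain that many FGFs need for receptor binding, were mixed. Of 20, 16 passed the filter; 3 rose and 9 fell in 2i/LIF (median -0.22 log2), and 4 rose and 5 fell in serum/LIF+2i (-0.02). Hs6st2, a 6-O-sulfotransferase, was at 0.172 and 0.304 CPM in 2i/LIF at 0 h and ended at 15.9 and 15.6. In serum/LIF+2i it had 0 counts at 0 h and ended at 12.2 and 13.2 CPM. Its relative Hs6st1 fell by 0.80 ± 0.06 (log2, SE; edgeR adjusted p = 2.9e-25) and by 1.25 ± 0.06 (3.6e-43). The extracellular sulfatases, which remove 6-O-sulfate, went opposite ways: Sulf1 rose by 0.39 ± 0.05 and 1.61 ± 0.05, and Sulf2 fell by 1.33 ± 0.05 and by 0.93 ± 0.05.

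All 20 adaptors and kinases downstream of the receptors passed the filter. In 2i/LIF 9 rose and 7 fell (median 0.09 log2), and in serum/LIF+2i 13 rose and 6 fell (0.23). The kinase gene Braf rose by 1.33 ± 0.06 (log2, SE) and 1.18 ± 0.06, Mapk3, which encodes ERK1, by 0.95 ± 0.07 and 0.78 ± 0.06, and Plcg1 by 0.59 ± 0.06 and 0.78 ± 0.06. Map2k2, which encodes MEK2, fell by 0.24 ± 0.06 in 2i/LIF (edgeR adjusted p = 6.3e-05) and rose by 0.24 ± 0.06 in serum/LIF+2i (6.2e-05).

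Of 14 feedback inhibitors and ETS targets of ERK 13 passed the filter, and most rose: 10 rose and 2 fell in 2i/LIF (median 1.34 log2), and 11 rose and 2 fell in serum/LIF+2i (2.04). Il17rd fell by 1.03 ± 0.07 (log2, SE) in 2i/LIF and by 0.72 ± 0.06 in serum/LIF+2i. Etv5, at 311 and 303 CPM in 2i/LIF at 0 h, was not called there (0.01 ± 0.04). It fell by 0.33 ± 0.04 in serum/LIF+2i. Dusp6, the ERK phosphatase, was at 8.27 and 7.14 CPM in 2i/LIF at 0 h and ended at 144 and 156. In serum/LIF+2i it was lower at first, at 2.50 and 3.08 CPM, and ended at 158 and 146. The media were apart at 0 h and overlapped at 40 h. The change was 4.29 ± 0.10 (log2, SE) and 5.76 ± 0.12, and its difference of 1.48 ± 0.26 between the media was called (edgeR adjusted p = 2.1e-06). Spry4 rose by 5.77 ± 0.22 and 7.31 ± 0.22, Etv4 by 2.69 ± 0.10 and 3.66 ± 0.10, and Spred1 by 1.29 ± 0.07 and 2.04 ± 0.06. At 0 h Spry4 was at 1.03 and 0.608 CPM in 2i/LIF and at 0.147 and 0.587 CPM in serum/LIF+2i. From so low a level its standard errors may be narrower than counting error, as may those of the Dusp6 changes. Spry2 fell by 0.20 ± 0.07 in 2i/LIF (0.0085) and rose by 0.29 ± 0.06 in serum/LIF+2i (3.3e-05). The former call was lost with DESeq2 (adjusted p = 0.068), with library size alone as the scaling (0.087), with a filter at a mean of 5 CPM (0.058) and when the 2i/LIF replicate 1 at 40 h was left out (0.095).

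**Figure D4:**
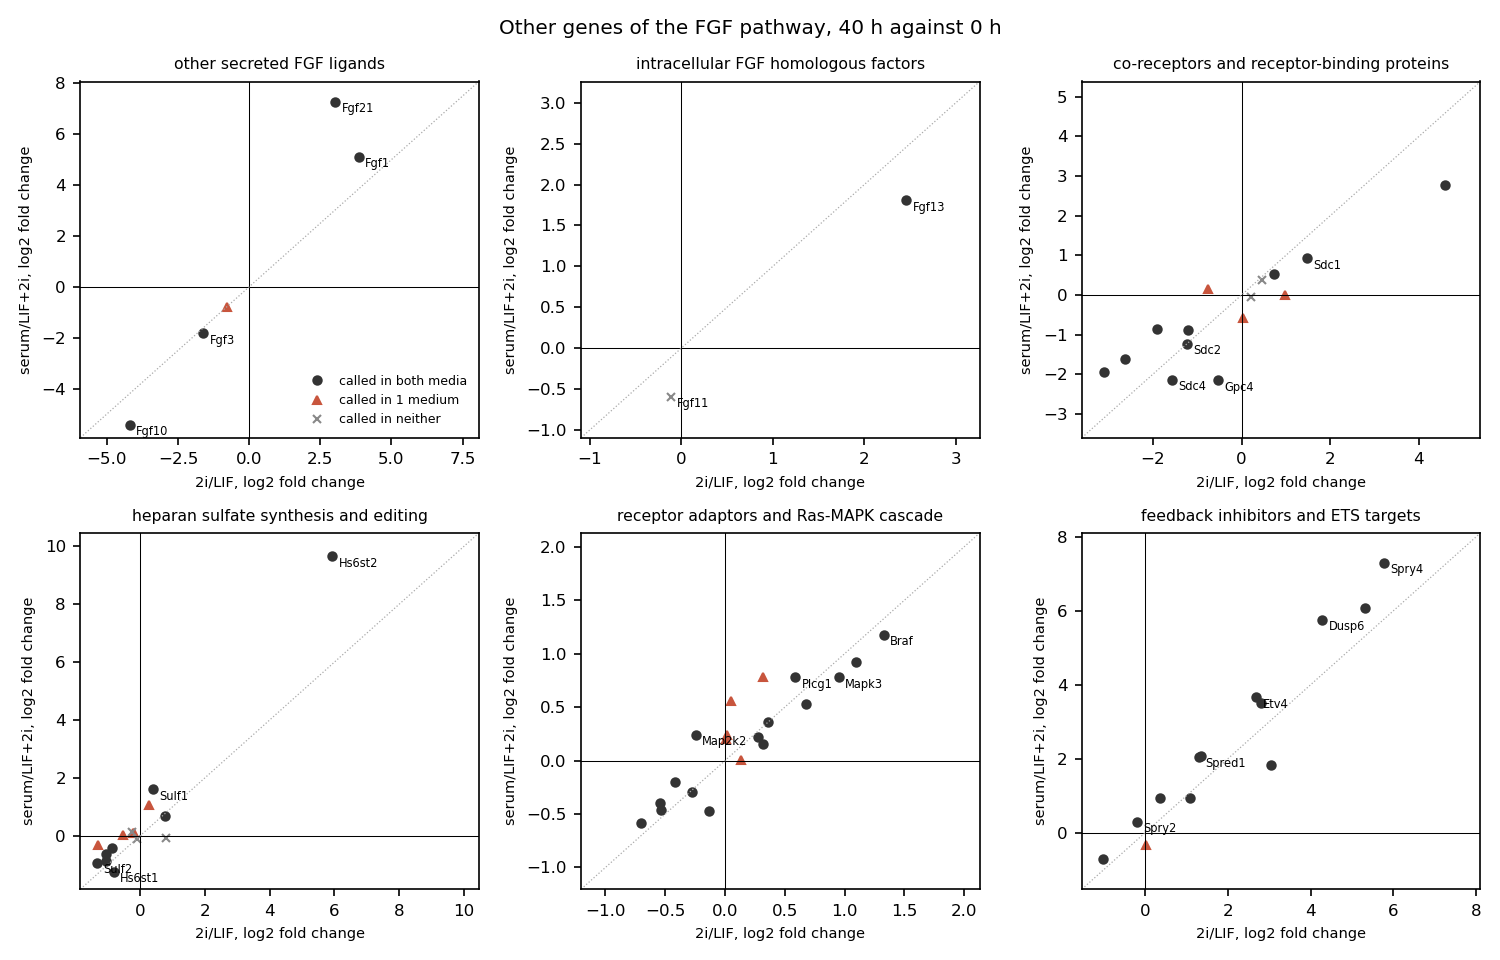
Log2 fold change at 40 h against 0 h in 2i/LIF (x) and serum/LIF+2i (y) for the genes of 6 pathway lists that passed the filter, each panel with its own limits. Markers show whether edgeR called the gene in both media, in 1 or in neither, and the dotted line marks equal change. Most feedback inhibitors lie above 0 in both media, with Dusp6 at 4.29 and 5.76, while Gpc4 lies far below the dotted line; values of Fgf1, Fgf21 and Hs6st2, near 0 counts at 0 h, depend on the prior count.

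Likeness of pattern was measured as Pearson's r over the 8 group means of log2 CPM, which share libraries and a course in time, and is given as a description. Fgf5 and Fgf15 had an r of 0.94, each had 0.90 with Fgfr2, and Fgf4 had -0.08 with Fgf5 and -0.71 with Fgfr3. Among 10690 other genes at 5 CPM or more on average, the closest to Fgf4 were Dnajb6 and Ech1 (0.983 each), to Fgf5 Ctbp2 and Tmem160 (0.989 and 0.987), and to Fgf15 Hells and Clstn3 (0.992 and 0.991). The closest to Fgfr1 were Snapc4 and Cttnbp2nl (0.987 and 0.977) and to Fgfr2 Grk2 and Dnmt3b, a DNA methyltransferase (0.996 and 0.989). For the rare receptors they were Pdzd8 and Herc1 for Fgfr3 (0.974 and 0.963) and Taf13 and Gm13034 for Fgfr4 (0.983 and 0.979). These were less firm: over the libraries of replicate 1 or of replicate 2 alone, r was 0.784 and 0.758 for Fgfr3 with Pdzd8, 0.820 and 0.986 for Fgfr4 with Taf13, and 0.801 and 0.894 with Gm13034. With 8 points high values are common: 222 genes were over 0.95 for Fgfr2, 159 for Fgf15, 26 for Fgf4 and 5 for Fgfr3.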

How the data were processed

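RNA of 16 libraries of mouse ES cells was isolated with TRIzol and made into libraries with a stranded mRNA kit, per the labels' protocols. The submitters' processing notes name fastp, STAR, featureCounts and mm10 without versions. The authors deposited whole-number counts per gene, not normalized, with Entrez identifier, symbol and gene length, per the file headers. Groups and replicate numbers came from the sample titles, and 0 columns were left unused. Genes were kept with filterByExpr over the 8 groups (minimum count 10, total 15; 14288 genes), scaled by TMM and fitted with edgeR 4.0.16 (R 4.3.3; robust quasi-likelihood, a term per group, 8 residual degrees of freedom, two-sided) for 19 comparisons, each adjusted by Benjamini-Hochberg. A standard error is the log2 fold change divided by the root of F. For a large change from few counts it may be narrower than counting error. The procedure was tested on simulated data. DESeq2 1.42.0, other scalings and filters and leaving out each library were alternatives. Coordinates and promoters are from RefSeq (GRCm38.p6, the assembly of mm10), which held windows for 5 of the 8 genes. The 8 genes and the lists were chosen with earlier results of these data known. From each list up to 4 genes with the smallest adjusted p at 40 h were named, with those at 5 CPM or more called in opposite directions in the media; the values of 1 gene so chosen are not reported here. Klb, Il17rd and Etv5 were named outside this rule. For each gene the 2 genes of highest correlation were named.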

Additional observations from a re-analysis of the deposited data

Results flagged for a closer look

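Tests of the difference between the media singled out 17 results, all given as the change in serum/LIF+2i minus that in 2i/LIF on the log2 scale, by edgeR with a call at an adjusted p under 0.05. For Fgf4 they were the changes from 0 h to 12 h (-0.26), to 24 h (-0.29) and to 40 h (-0.77) and the step from 24 to 40 h (-0.48). For Fgf5 and Fgf15 it was the step from 24 to 40 h, with -1.60 and -1.39. Among the other pathway genes chosen by the rule above, the change from 0 to 40 h differed for the surface proteoglycans Gpc4 (-1.63), Sdc4 (-0.58) and Sdc1 (-0.55). The last was lost with DESeq2 (adjusted p = 0.062) and without replicate 2 of 2i/LIF (-0.47, 0.08) or of serum/LIF+2i (-0.25, 0.41) at 0 h. It differed for the heparan sulfate enzymes Sulf1 (1.22), Sulf2 (0.40) and Hs6st1 (-0.45), for the kinase Map2k2 (0.48), and for the feedback and ETS genes Dusp6 (1.48), Etv4 (0.97), Spred1 (0.75) and Spry2 (0.49). At 40 h 27.6% of all genes differed in this way.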

How the results depend on the processing

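Over the 19 comparisons, 2124 recomputed log2 values, of those called or given above for the 7 genes tested, kept their direction and their side of the threshold, 89 lost a call, 16 gained one (each Fgfr1 in serum/LIF+2i at 24 h) and 6 changed sign, the last all among values that were not called. A further 1267 fits of values neither called nor given above, pathway genes included, had 55 changes of sign and 4 calls. Requiring an absolute log2 fold change of at least 1 lowered the count of genes called most. From 0 h it went from 5 to 3 (2i/LIF, 12 h) and from 7 to 4 (serum/LIF+2i, 12 h), and over the last step from 6 to 2 in each medium. Between the media it went from 2 to 0, from 3 to 1, from 4 to 0 and from 4 to 1 in order of time, and for the change from 0 h from 1 to 0 at each time. Fewer values pass by construction of that alternative. With DESeq2 the count between the media went from 2 to 1 at 0 h and from 3 to 2 at 12 h. At 24 and at 40 h it went from 4 to 3. For serum/LIF+2i against 0 h it went from 7 to 5 at 12 h and from 7 to 6 at 40 h. For the step from 12 to 24 h it went from 4 to 3 in each medium. Over the last step it went from 6 to 4 in 2i/LIF and from 6 to 5 in serum/LIF+2i. The cause was not tested. Leaving out single libraries gave 3 to 7 genes for serum/LIF+2i at 12 h, 3 to 6 for the last step of 2i/LIF, and 1 to 2 and 2 to 4 between the media at 0 and 24 h, with fewer samples in each fit. The 3 ligand differences in the last step kept their calls under every alternative except that of Fgf4 with the minimum fold change.

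The 6 sign changes came from leaving out single libraries. The last-step difference between media ranged from -0.014 to 0.064 for Fgfr1, from -0.043 to 0.35 for Fgfr2 and from -0.084 to 0.33 for Fgfr4, with further values below 0 of -0.07 and -0.05, and the medium difference of Fgfr2 at 40 h from -0.33 to 0.064. Replicate numbers did not pair the samples: over 28 pairs of groups their deviations correlated between -0.023 and 0.033. With the replicate number as a block the count for serum/LIF+2i at 24 h was 6 in place of 5, by the addition of Fgfr1 (0.11), and the other 18 counts were the same. Depth limits Fgf8, Fgfr3 and Fgfr4, which held at most 33 counts in a library. A gene left untested, or with no adjusted p from DESeq2, gave no value in that alternative.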
